A study of Mus musculus with 48 samples.

Results

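The genes described here are the constant region and secretory genes of mucosal antibody, a set of 8 that comprised Igha, Ighm and Ighd (the heavy chain constant regions of IgA, IgM and IgD), Igkc (the kappa light chain constant region), Jchain, Pigr, Mzb1 and Tnfrsf17. They were chosen by symbol, with each gene matched to its Ensembl identifier. Of the 8 genes, 6 had rows, 27 rows over 6 tissue tables, among 15541 genes listed in at least 1 table. Ighm was listed in all 6 tissues, Igha, Igkc, Jchain and Pigr in 5 tissues each, and Mzb1 in subcutaneous fat alone. Ighd and Tnfrsf17 had no row matched and were not analysed here.

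All mice were male C57Bl6 animals made obese by a high fat diet, killed 9 days after surgery and fasted beforehand. The RYGB group had Roux en Y gastric bypass, in which a small stomach pouch is joined to the small intestine so that food does not pass the duodenum. The sham group had surgery without bypass, and both groups then received a liquid elemental diet. RNA was sequenced from scraped villi of the duodenum and jejunum (4 sham and 3 RYGB libraries each) and of the ileum (5 and 5), and from liver, subcutaneous white adipose tissue (WAT) and gastrocnemius muscle (4 and 4 each), 48 libraries in all. The villi had been scraped off with a cell scraper after a short time in cold EDTA, so the depth of mucosa taken from each mouse is not known. The labels do not say whether samples of different tissues came from the same mice, and p-values measure the spread between libraries of a tissue.

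IgA is made by plasma cells in the lamina propria, the connective tissue under the gut epithelium. Its alpha heavy chain and a light chain form monomers, which the J chain joins into dimers, and the polymeric immunoglobulin receptor, pIgR, carries these dimers across the epithelial cell into the lumen. In this system Igha, Ighm, Igkc and Jchain are transcribed in cells of the B lineage, whereas Pigr is transcribed in the epithelium and, in mice, also in hepatocytes. Mzb1 is an endoplasmic reticulum protein that helps B cells and plasma cells assemble and secrete IgM and IgA, and Tnfrsf17 encodes BCMA, a survival receptor of plasma cells.

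On the mouse genome GRCm38 (GENCODE M21 annotation), Igha lies at chr12:113254830-113260236 and Ighm at chr12:113418558-113422730, both on the minus strand of the heavy chain locus. Igkc lies at chr6:70726435-70726966 on the plus strand, Jchain at chr5:88519809-88527891 on the minus strand and Pigr at chr1:130826684-130852249 on the plus strand. The upstream sequences of the J chain gene and of the receptor gene are shown because these genes encode the joining chain and the carrier of the same antibody and are transcribed in different cells. Each run is the 250 bases before the RefSeq transcription start (GRCm38.p6), read 5′ to 3′ on the strand of the gene, at chr5:88527898-88528147 (minus strand) for Jchain and at chr1:130826434-130826683 (plus strand) for Pigr. Capitals mark a match to a motif, on either strand.
Jchain: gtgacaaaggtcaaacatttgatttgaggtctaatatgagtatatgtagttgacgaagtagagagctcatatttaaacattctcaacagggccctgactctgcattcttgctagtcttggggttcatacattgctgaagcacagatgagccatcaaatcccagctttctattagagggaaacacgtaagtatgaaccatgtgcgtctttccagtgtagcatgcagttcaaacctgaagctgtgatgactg
Pigr: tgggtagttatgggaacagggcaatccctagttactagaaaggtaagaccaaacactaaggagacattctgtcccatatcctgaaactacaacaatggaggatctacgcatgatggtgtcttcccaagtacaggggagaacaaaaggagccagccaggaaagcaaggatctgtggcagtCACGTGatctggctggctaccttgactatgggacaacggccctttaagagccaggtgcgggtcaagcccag

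The motifs searched were the octamer ATGCAAAT of B cell promoters, the E box CACGTG, the interferon response core GAAANNGAA, a kappa B site written GGGANTTCC and the PU.1 core GAGGAA. In the Pigr window CACGTG, which reads the same on both strands, stood at bases -71 to -66, counted back from the start, and the other 4 motifs were not found in these letters. None of the 5 motifs was found in the Jchain window. Of 32851 promoter windows of the same length, 6.02% held CACGTG, 23.3% the PU.1 core, 7.13% the interferon response core, 1.60% the octamer and 1.43% the kappa B letters.

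Expression was given as CPM, the reads of a gene scaled to a common library total, rounded to 0.1, with column sums between 925122 and 998777, and depth is unknown because the tables hold no counts. Within a tissue RYGB was compared with sham by limma on log2(CPM + 1), and a gene was called if its adjusted p-value was under 0.05 and its fold change at least 1.5. Fold changes are on this log2(CPM + 1) scale, which understates the change of genes near 1 CPM. All 8 villus epithelium markers were listed in each villus table, with summed levels between 16968 and 30164 CPM. The libraries labelled ileum did not have a uniform ileal profile. In them Fabp6, the ileal bile acid binding protein, ranged from 0 to 22.9 CPM in sham and from 0.1 to 50.5 CPM in RYGB, and Gata4, a marker of the proximal intestine, from 105 to 183.2 CPM, against 122 to 239.1 CPM in the jejunum. In the duodenum, the pancreatic enzyme gene Cela1 stood at 1978.8 CPM in sham 1, 4817.2 in sham 2 and 517.5 in RYGB 3, and at 11.7 CPM or less in the other 4 libraries. The log2 fold changes of the antibody genes and Pigr in the duodenum are given with and without these 3 libraries. Shares of the heavy chains, ratios and correlations include them.

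The levels fell into a mucosal and a non-mucosal pattern. Igha was the main heavy chain of most villus libraries, Ighm was the main heavy chain of liver, WAT and muscle, and Pigr was abundant in villi and liver. The plot of CPM by tissue shows every library.

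**Figure D1:**
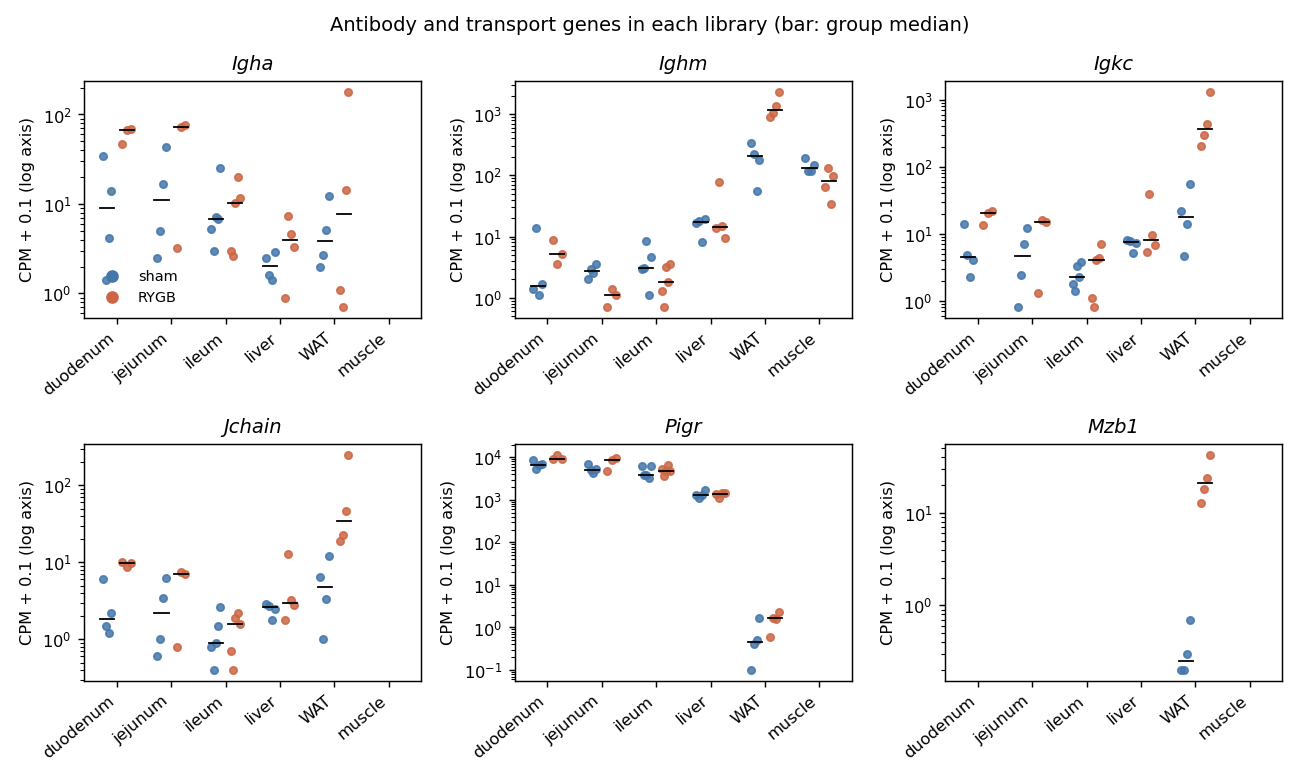
CPM of the 6 genes in each library by tissue, on a log axis after adding 0.1, with sham in blue, RYGB in orange and a bar at each group median. Pigr lies between 1100.7 and 11667.8 CPM in villi and liver, Ighm is highest in WAT, and all 4 RYGB libraries of WAT lie above all 4 sham libraries for Ighm, Igkc, Jchain and Mzb1.

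Pigr, the epithelial carrier of IgA, was the most abundant of the genes in villi. In the sham group its mean was 6881 ± 1474 CPM in the duodenum (SD, n = 4), 5383 ± 1131 in the jejunum (n = 4), 4759 ± 1491 in the ileum (n = 5) and 1358 ± 277 in the liver (n = 4), and 0.575 ± 0.704 in WAT (n = 4). The ranges of neighbouring villus segments overlapped, whereas the ileum lay apart from the liver and the liver apart from WAT. The tables were normalised separately, so levels across tissues were set side by side with no test. The RYGB means followed the same order, from 9983 ± 1461 CPM in the duodenum (n = 3) to 1.45 ± 0.705 in WAT (n = 4).

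Igha had its highest sham means in the jejunum (16.9 ± 18.7 CPM, n = 4) and duodenum (13.4 ± 15.04, n = 4), followed by the ileum (9.42 ± 9.02, n = 5), WAT (5.43 ± 4.71, n = 4) and liver (2.00 ± 0.716, n = 4). Every neighbouring pair in that order overlapped. The SD was about as large as the mean in each of the gut segments, so single libraries rather than segments set the spread. Per kb of exon, sham Igkc stood at 11.7 CPM in the duodenum, Igha at 5.03 and Jchain at 1.04, against 1710 for Pigr.

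The question in the gut was whether antibody transcripts of the villi differ after food is diverted. In the duodenum, the segment that food no longer passes, Igha, Jchain and Pigr lay higher in every RYGB library than in every sham library, but none of the 5 genes passed the adjusted test. In these villi only 1 of 10850 genes was called (0.00922%), and RYGB lay wholly above sham in 12.7% of the genes. Without adjustment, 2040 genes had p under 0.05.

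In the duodenum Igha was 46.4, 66.8 and 69.1 CPM in the RYGB libraries and 34.5, 1.3, 4.1 and 13.8 CPM in the sham libraries. All RYGB values exceeded the highest sham value, and sham values varied widely. The log2 fold change was 2.78 (SE 0.81, 95% confidence interval 0.94 to 4.62, limma adjusted p = 0.153). Jchain was 9.9, 8.5 and 9.6 CPM in RYGB and 5.9, 1.4, 1.1 and 2.1 CPM in sham, and again the groups did not overlap. Its log2 fold change was 1.68 (SE 0.38, 95% confidence interval 0.82 to 2.54, adjusted p = 0.134). Without sham 1, the sham library highest in both genes, Jchain was called (2.04, adjusted p = 0.0255).

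Igkc, which serves all antibody classes, was 13.3, 20 and 21.5 CPM in the RYGB duodenum and 13.8, 4.8, 2.2 and 4 CPM in sham, where sham 1 overlapped the RYGB group (log2 fold change 1.63, SE 0.46, adjusted p = 0.150). Ighm did not follow the others. It was 8.7, 3.4 and 5.1 CPM in RYGB and 1.3, 13.7, 1 and 1.6 CPM in sham, with the highest value in sham 2 (0.81, SE 0.67, adjusted p = 0.537). Pigr was 9213.7, 11667.8 and 9067.9 CPM in RYGB and 8802.4, 5252.2, 6476.4 and 6993.2 CPM in sham, a log2 fold change of 0.55 (SE 0.31, adjusted p = 0.375). Over all genes of this tissue the median was 0.12. Without the 3 libraries that were high in Cela1, Igha had a log2 fold change of 2.71 (adjusted p = 0.309), Jchain of 2.00 (0.239), Igkc of 2.12 (0.239), Ighm of 1.52 (0.607) and Pigr of 0.62 (0.721).

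Markers of other mucosal cells were set beside these values in the duodenum. The 4 listed lamina propria stroma markers summed to between 10.9 and 25.2 CPM in RYGB and between 2.3 and 13.2 CPM in sham, the 5 macrophage markers to 16.1 to 38.5 and 4.6 to 19.5 CPM, and the 7 T cell markers to 41.7 to 94.5 and 15.1 to 48.6 CPM, with overlap of the groups in each. The 5 crypt and Paneth markers summed to 79.8 to 216.3 CPM in RYGB and 29.1 to 59 CPM in sham, without overlap. Of 14 B cell markers only Spib and Cd37 were listed in the villus tables, and Ms4a1 and Cd79a had no row matched there. Spib and Cd37 together were 13.8 to 22 CPM in RYGB and 5.1 to 13.3 CPM in sham, also without overlap. Within the RYGB group the order differed, since RYGB 1 had the lowest Igha and the highest sum of each of these lists. None of these markers was called, the lists' median log2 fold changes lay between 0.97 and 1.63, and their part in the antibody genes' values was not tested. In these bulk libraries, more cells of a type and more RNA per cell cannot be told apart.

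In the jejunum 1 of the 5 genes was called, Ighm, which fell, while 9.75% of all genes tested in this tissue were called and 5.13% were called lower. Ighm was 0.6, 1.3 and 1 CPM in RYGB and 1.9, 2.8, 2.4 and 3.5 CPM in sham. Every RYGB value was below every sham value, a pattern shared by 12.5% of genes. The log2 fold change was -0.89 (SE 0.23, 95% confidence interval -1.40 to -0.38, adjusted p = 0.0383). Ighm passed the filter on low values through its sham group, since its RYGB mean was 0.967 CPM. The call was lost without any 1 of the 7 libraries, with adjusted p-values from 0.0516 to 0.102 and log2 fold changes from -1.01 to -0.75. RYGB 2 was sequenced in another lane than the other 6 libraries, and within lane 1 the difference was -1.01.

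The IgA genes of the jejunum were split within the RYGB group. Igha was 3.1 CPM in RYGB 1 but 71.5 and 75.3 CPM in RYGB 2 and 3, against 2.4, 4.9, 16.8 and 43.3 CPM in sham. The same libraries were low or high for Jchain, which was 0.7, 7.5 and 7 CPM in RYGB and 0.5, 0.9, 3.3 and 6.1 CPM in sham. Igkc followed with 1.2, 15.9 and 15 CPM in RYGB and 0.7, 2.3, 6.9 and 12 CPM in sham. The groups overlapped for each of the 3 genes, and the fold changes carried wide intervals. For Igha the log2 fold change was 1.34 (SE 1.09, 95% confidence interval -1.09 to 3.76, adjusted p = 0.510), for Igkc 0.78 (adjusted p = 0.619) and for Jchain 0.67 (adjusted p = 0.590). Within lane 1, which leaves out RYGB 2, these differences were 0.66, 0.28 and 0.27. Without RYGB 1 they were 2.73 (adjusted p = 0.0816), 1.75 (0.156) and 1.43 (0.156), and with any other library left out Igha lay between 0.62 and 2.00.

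Pigr in the jejunum was 4890.1, 8534.6 and 9652.8 CPM in RYGB and 6930.3, 4988.8, 4247.9 and 5366 CPM in sham (log2 fold change 0.48, SE 0.29, adjusted p = 0.349). RYGB 1, the library low in Igha, was also the lowest RYGB library for Pigr. Among 14 listed genes that control pIgR or act with it, Il4ra, the receptor chain of the pIgR inducer IL-4, was the only one called (log2 fold change 1.27, adjusted p = 0.00906), a smaller share than the 9.75% of all genes. The median of these 14 genes was 0.28, against -0.04 for all genes.

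Of 9 listed genes of IgA switching, survival and homing in the jejunum, 1 rose and 1 fell. Ccl28, the chemokine that draws IgA plasma cells to mucosae, rose from 15.3 ± 8.64 to 54.4 ± 27.4 CPM (1.73, SE 0.46, adjusted p = 0.0422). The groups overlapped, since Ccl28 was 22.7, 69.8 and 70.6 CPM in RYGB and 27.7, 11.4, 8 and 14.1 CPM in sham. Aldh1a1, which makes retinoic acid, fell from 404 ± 228 to 115 ± 39.5 CPM (-1.67, SE 0.41, adjusted p = 0.0327). In the plasma cell programme list, 2 of 13 genes rose and none fell. These were Xbp1, a driver of the secretory machinery (0.70, adjusted p = 0.0178), and Sdc1, or CD138 (1.09, adjusted p = 0.0077), both of which intestinal epithelial cells also express. T cell markers fell in 5 of 6 tested, among them Cd8a (-1.88, adjusted p = 0.00411) and Cd3g (-1.72, adjusted p = 0.00461), and the listed T cell markers summed to 8.5 to 17.1 CPM in RYGB and 39.6 to 64 CPM in sham. Of the 5, Cd3d was 0.3, 0.5 and 1.2 CPM in RYGB and was listed through the sham group, which favoured a fall. The Paneth cell genes Lyz1 (2.05) and Defa24 (1.96) rose. The part of these cells in the antibody genes' values was not tested.

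In the ileum none of the 5 genes was called, where 6.05% of all genes were called, and with each library scaled by its median ratio the share of called genes that rose moved from 27.1% to 37.1%. All 5 sham libraries were run in other lanes than the RYGB libraries, so the effect of lane cannot be told apart from that of surgery there. Igha was 2.9, 2.5, 10.2, 19.7 and 11.6 CPM in RYGB and 5.2, 2.9, 7, 6.7 and 25.3 CPM in sham. The groups covered the same range, and the log2 fold change was 0.01 with a 95% confidence interval from -1.22 to 1.23. Jchain had a log2 fold change of 0.09 (95% confidence interval -0.57 to 0.74) and Igkc of 0.17 (-0.70 to 1.03).

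Ighm in the ileum was 1.2, 0.6, 3.1, 1.7 and 3.4 CPM in RYGB and 2.9, 3, 8.5, 1 and 4.6 CPM in sham, with overlap (-0.66, SE 0.39, adjusted p = 0.304). Pigr was 5240.1, 3744, 4858.4, 6588.2 and 4759.8 CPM in RYGB and 6342.5, 3944.1, 3855.9, 3262.7 and 6391.9 CPM in sham (0.11, 95% confidence interval -0.39 to 0.62, adjusted p = 0.788). None of the 14 listed genes that control or partner pIgR was called in the ileum. The gut homing receptor genes Itgb7 (-1.24, SE 0.32, adjusted p = 0.0383) and Ccr9 (-0.77, SE 0.16, adjusted p = 0.0176) fell, as did 4 of 5 T cell markers, among them Cd8a (-1.99, adjusted p = 0.00962). Ccr9 was 0.5 to 1.1 CPM in RYGB and 1.5 to 3.1 CPM in sham, so it was listed through the sham group, which favoured a fall. Itgb7 was also under 1 CPM in RYGB 2 and 5. Both receptors are carried by T cells as well as by IgA plasma cells.

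**Figure D2:**
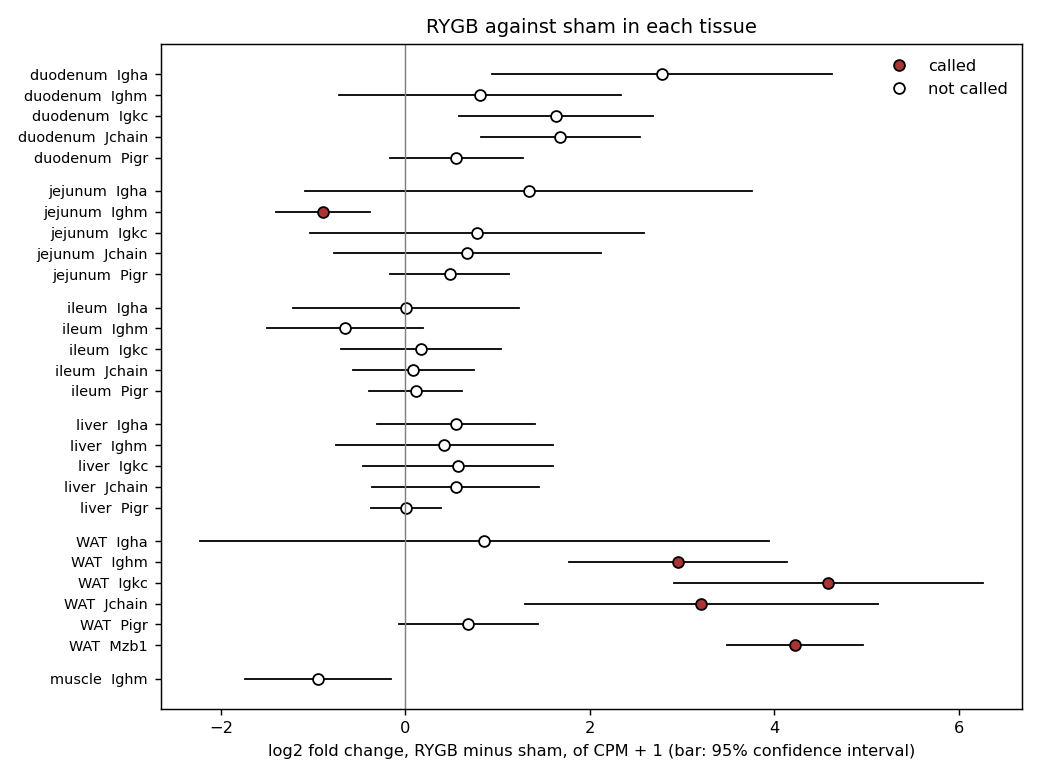
Log2 fold change of RYGB against sham on log2(CPM + 1) for each gene and tissue, with 95% confidence intervals and filled points for called genes. The 5 called values are Ighm, Igkc, Jchain and Mzb1 in WAT, which are higher in RYGB, and Ighm in the jejunum, which is lower.

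Across the villi Igha, Jchain and Igkc were high or low in the same libraries, although their ratios varied. Igha per CPM of Jchain was 0.929 in sham 2 of the duodenum and 3.73 to 10.8 in the other villus libraries, and Igha per CPM of Igkc was 0.271 in that library and 1.68 to 6.84 in the others. Over the 24 villus libraries, after the mean of each segment and surgery group was subtracted from log2(CPM + 1), Pearson's r was 0.95 between Igha and Jchain, 0.89 between Igha and Igkc and 0.93 between Igkc and Jchain. For Igha with Ighm r was -0.01, and for Igha with Pigr it was 0.55. These are descriptions over libraries that share their total of reads, with no test. Of 10449 genes listed in all 3 segments, and leaving out the antibody genes, those most like Igha were 2210407C18Rik (r = 0.81), Sympk (0.77), Ubr2 (0.75), Smg6 (0.74) and Sf3b2 (0.74). The summed T cell markers had r = 0.57 with Igha, the listed B cell markers Spib and Cd37 0.38, stroma markers 0.38 and macrophage markers 0.25. For crypt and Paneth markers r was 0.11, for the pancreatic marker Cela1 -0.05 and for villus epithelium markers -0.32. For Pigr the most alike genes were Chd2 (0.92), Myom3 (0.91), Snx11 (0.89), Bap1 (0.86) and Gpkow (0.85).

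**Figure D3:**
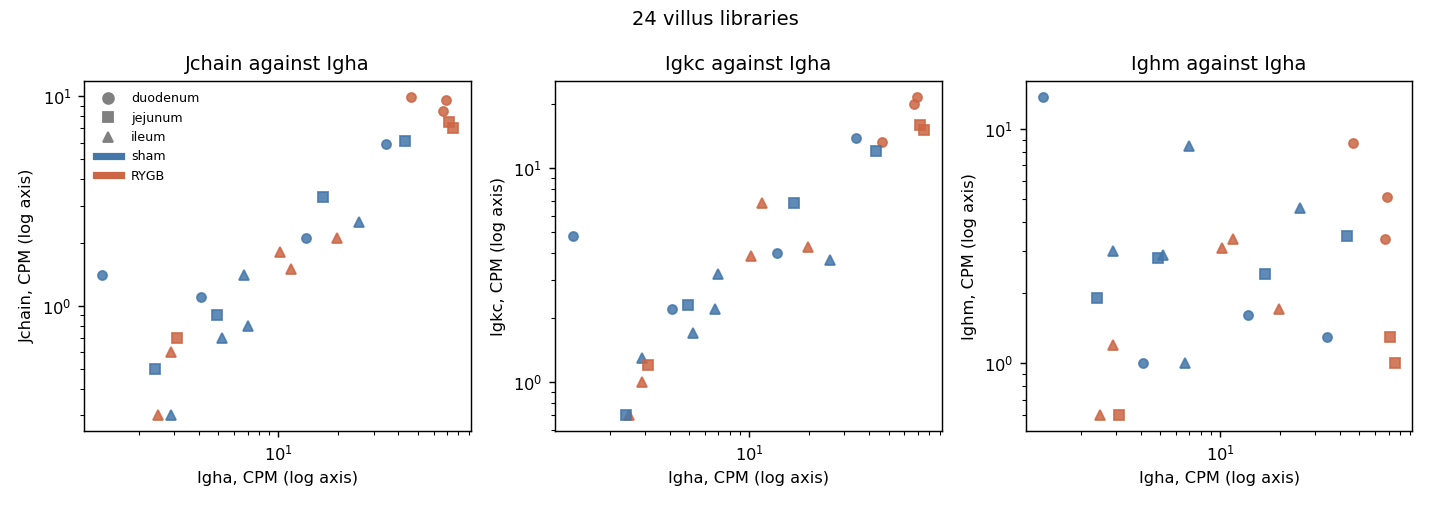
CPM of Jchain, Igkc and Ighm against Igha in the 24 villus libraries on log axes, with symbols for the segment and colours for surgery. Jchain and Igkc are mostly higher where Igha is higher (r = 0.95 and 0.89 after subtraction of group means) and Ighm does not (r = -0.01), with sham 2 of the duodenum at the top left.

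The share of each class among the heavy chain constant transcripts does not depend on scaling between libraries. Over the listed heavy chain rows, Igha made up 84.2 to 95.2% of the heavy chain CPM in the RYGB duodenum and 8.67 to 96.4% in the sham duodenum. The low value was that of sham 2, with 1.3 CPM of Igha beside 13.7 CPM of Ighm, and this library also had the most Cela1. The other 3 sham libraries lay between 80.4 and 96.4%. In the jejunum Igha made up 83.8, 98.2 and 98.7% in RYGB and 55.8, 63.6, 87.5 and 92.5% in sham, and in the ileum 70.7 to 92.1% and 45.2 to 87.0%. No IgG constant gene was listed in the villus tables, so these shares are of Igha and Ighm alone.

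Outside the gut the classes were reversed. Ighm made up 62.2 to 87.2% of the heavy chain CPM in the RYGB liver and 62.2 to 82% in the sham liver, with Ighg2b at 6 to 27.6% over all 8 liver libraries. In WAT Ighm made up 64.0 to 94.3% in RYGB and 88.2 to 99.3% in sham, and IgG genes 5.68 to 31.1% in RYGB and 0.148 to 3.92% in sham. The IgG ranges did not overlap. However, Ighg1, Ighg2c and Ighg3 had sham means of 0.15, 0.25 and 0.075 CPM and were listed only through the RYGB group, which favoured this direction. The share of Ighg2b alone overlapped, at 1.39 to 13.3% in RYGB and 0.0296 to 3.45% in sham. Ighg2b too was under 1 CPM in sham 1 and 2, so its listing also rested on RYGB libraries. Igha took at most 4.97% of the heavy chain CPM in any RYGB library of WAT and at most 7.85% in any sham library. The IgG subclass genes are alike in sequence, so reads may have been split between them.

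**Figure D4:**
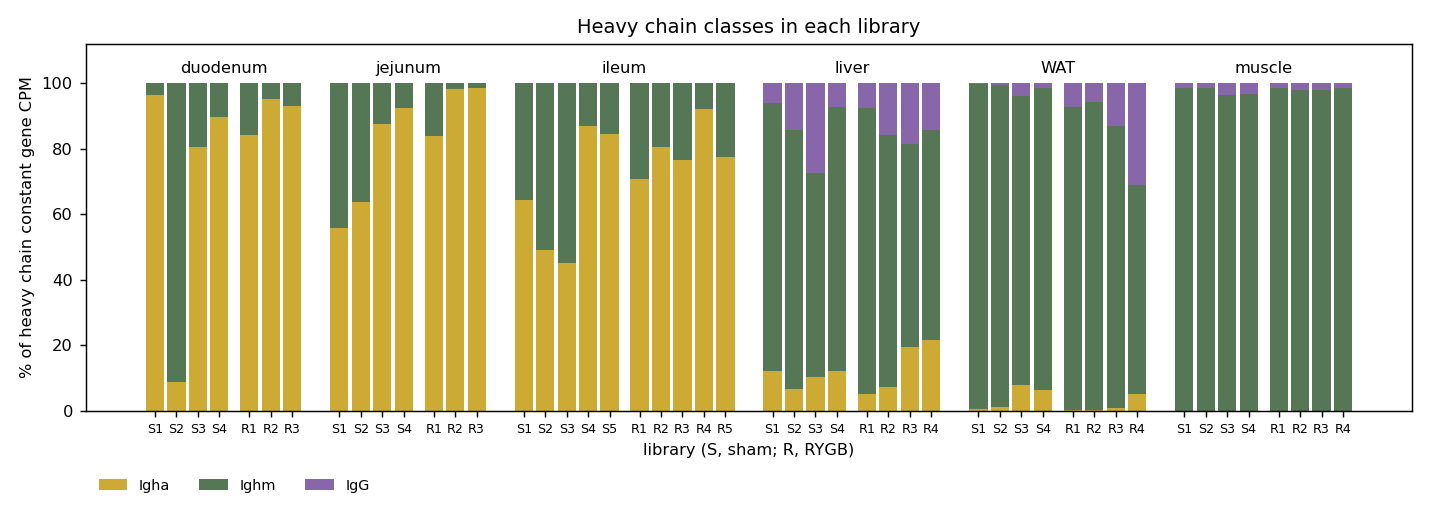
Share of Igha, Ighm and the listed IgG genes in the summed CPM of heavy chain constant genes, as stacked bars for each of the 48 libraries (S, sham and R, RYGB, with the replicate number). Igha makes up most of nearly all villus bars and Ighm most of the liver, WAT and muscle bars, and the IgG share reaches 31.1% in RYGB 4 of WAT.

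In WAT the antibody genes of B cells and plasma cells rose after RYGB. Of the 6 genes, 4 were called and all 4 were higher, where 24.1% of all genes in this tissue were called, 14.9% higher and 9.23% lower. Mzb1, 1 of the 4, had a sham mean of 0.25 CPM and was listed only through the RYGB group, so its direction was fixed. With each library scaled by its median ratio, the share of called genes that rose moved from 61.8% to 50.4%, the median over all genes moved by 0.10, and the same 4 genes remained called.

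Ighm in WAT was 905.1, 1022.3, 1333.1 and 2307.1 CPM in RYGB and 335.3, 226.8, 56.2 and 179.3 CPM in sham. The groups did not overlap, as for 26.1% of genes with RYGB above sham, and the log2 fold change was 2.95 (SE 0.52, adjusted p = 0.0048). Igkc was 205, 295.2, 433.6 and 1313.2 CPM in RYGB and 21.5, 4.6, 13.8 and 55.3 CPM in sham, also without overlap (4.59, SE 0.74, adjusted p = 0.0034). RYGB 4 was the highest library for each of these genes.

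Jchain, which joins secreted IgA and IgM into polymers, was 18.9, 22.3, 46.7 and 251.1 CPM in the RYGB group of WAT and 6.3, 0.9, 3.2 and 12.1 CPM in sham. The lowest RYGB library exceeded the highest sham library (3.21, SE 0.85, adjusted p = 0.0196), but without sham 2 the adjusted p-value was 0.0527 and the log2 fold change 2.72. Mzb1, the assembly factor, was 12.7, 18, 23.9 and 42.8 CPM in RYGB and 0.1, 0.1, 0.2 and 0.6 CPM in sham (4.22, SE 0.33, adjusted p = 9.44e-05). It was listed and passed the filter on low values only through the RYGB group, which fixed its direction.

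Igha did not rise with the other antibody genes of WAT. It was 1, 0.6, 14.3 and 179.1 CPM in RYGB and 1.9, 2.6, 5 and 12.2 CPM in sham, so that RYGB 1 and 2 lay below every sham library and RYGB 3 and 4 above. The log2 fold change was 0.85 (SE 1.36, 95% confidence interval -2.23 to 3.94, adjusted p = 0.635), and without RYGB 4 it was -0.55. Pigr was at the limit of listing in WAT, with 0.5, 1.6, 1.5 and 2.2 CPM in RYGB and 0, 0.3, 0.4 and 1.6 CPM in sham (0.68, SE 0.33, adjusted p = 0.130).

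Lanes were mixed in WAT. Lane 5 held 2 RYGB and 2 sham libraries and lane 6 held 1 of each. The log2 differences within these lanes were 2.08 and 3.68 for Ighm, 5.00 and 4.54 for Igkc, 3.16 and 4.27 for Jchain, 4.31 and 4.77 for Mzb1, and 0.61 and 3.77 for Igha.

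Of the remaining constant genes, 5 were listed in WAT. Ighg2b was 13.6, 21.3, 69.4 and 478.6 CPM in RYGB and 0.1, 0.4, 2.2 and 2.5 CPM in sham (4.82, adjusted p = 0.0083). Iglc2, a lambda light chain constant region, was 37, 55.1, 85.5 and 130.2 CPM in RYGB and 0.7, 0.5, 1.6 and 1.3 CPM in sham (5.15, adjusted p = 5.35e-05). Both rose. Ighg1 (5.24), Ighg2c (4.81) and Ighg3 (4.50) were also called higher, but with sham means of 0.15, 0.25 and 0.075 CPM they were listed only through the RYGB group, which fixed their direction. Kappa made up 83.5 to 91.0% of the light chain constant CPM in RYGB and 89.6 to 97.7% in sham. The lambda part of these shares is Iglc2 alone, so the same limit of listing holds for them.

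Variable segments were listed only in WAT, 10 heavy chain, 33 kappa and 2 lambda segments. Of these, 10 heavy chain, 31 kappa and 2 lambda segments had a sham mean under 1 CPM, so they were listed through the RYGB group and the direction of their sums was fixed by the listing. In RYGB the heavy segments summed to 20.4, 26.3, 31.7 and 89.1 CPM and the kappa segments to 72.4, 97, 155.6 and 359.1 CPM, against at most 1.5 and 25.4 CPM in sham. Iglv1 had the highest mean in RYGB (14.9 CPM) and Igkv14-126 in sham (3.65 CPM). No listed kappa segment took more than 10.8% of the kappa segment total in any RYGB library, whereas Igkv14-126 took 34.7, 41.9 and 36.6% in sham 1, 3 and 4. The sham totals are small, which makes these shares coarse, and similar segments can share reads.

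B cell and lymph node genes moved with the antibody genes in WAT. All 14 B cell markers and all 12 T cell markers rose. Of these, 3 and 3 had a sham mean under 1 CPM and were listed through the RYGB group, which fixed their direction. Blk, Cd79a, Fcmr and Spib, and Cd3d, Cd3g and Cd8b1, also had sham libraries under 1 CPM. Their listing thus also rested on RYGB libraries, which favoured a rise. The B cell markers summed to 1618 to 4298 CPM in RYGB and 59.8 to 89 CPM in sham, with a median log2 fold change of 5.95 against 0.11 for all genes. Among them were Cr2 (6.99), Ms4a1 (6.51) and Cd79a (6.41), of which Ms4a1 alone was above 1 CPM in every sham library. T cell markers summed to 526.6 to 1993 CPM in RYGB and 32.2 to 76.6 CPM in sham. Of 4 listed genes of lymph node stroma and vessels, Glycam1, a product of high endothelial venules (5.97), Cxcl13 (4.19) and Enpp2 (0.71) rose. Glycam1 was 42 to 136 CPM in RYGB and 0 to 0.2 CPM in sham, so it was listed only through the RYGB group, which fixed its direction. Fat markers summed to 6342 to 11913 CPM in RYGB and 13370 to 19921 CPM in sham. The part of lymphoid tissue in the antibody genes' values was not tested.

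Relative to the B cell markers, the antibody genes of WAT had another order. For each 100 CPM of summed B cell markers, Ighm was 41.5 to 56.0 CPM in RYGB and 77.6 to 561 CPM in sham, and Igha 0.0244 to 4.17 CPM in RYGB and 3.18 to 13.7 CPM in sham. Ighm thus lay lower in every RYGB library on this scale, whose divisor rose more (median log2 fold change 5.95) than Ighm did (2.95). Jchain (0.906 to 5.84 and 1.36 to 13.6 CPM) and Igkc (11.99 to 30.6 and 6.93 to 62.1 CPM) overlapped. In sham, Cd37 alone made up 37.5 to 53.3 CPM of the marker sum. Without Cd37 Ighm was 47.4 to 65.0 CPM in RYGB and 163 to 1504 CPM in sham for each 100 CPM of the other markers, Igha 0.0278 to 4.77 and 8.52 to 34.2 CPM, and Mzb1 0.835 to 1.14 and 0.429 to 1.68 CPM. Ighm and Igha thus lay lower in every RYGB library without Cd37, and Mzb1 overlapped. Both divisors include the 3 markers with a sham mean under 1 CPM and the others whose listing also rested on RYGB libraries. Ighm per CPM of Igkc was 1.76 to 4.42 in RYGB and 3.24 to 49.3 in sham. Sham 2, with 226.8 CPM of Ighm beside 4.6 CPM of Igkc, had the highest ratio.

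**Figure D5:**
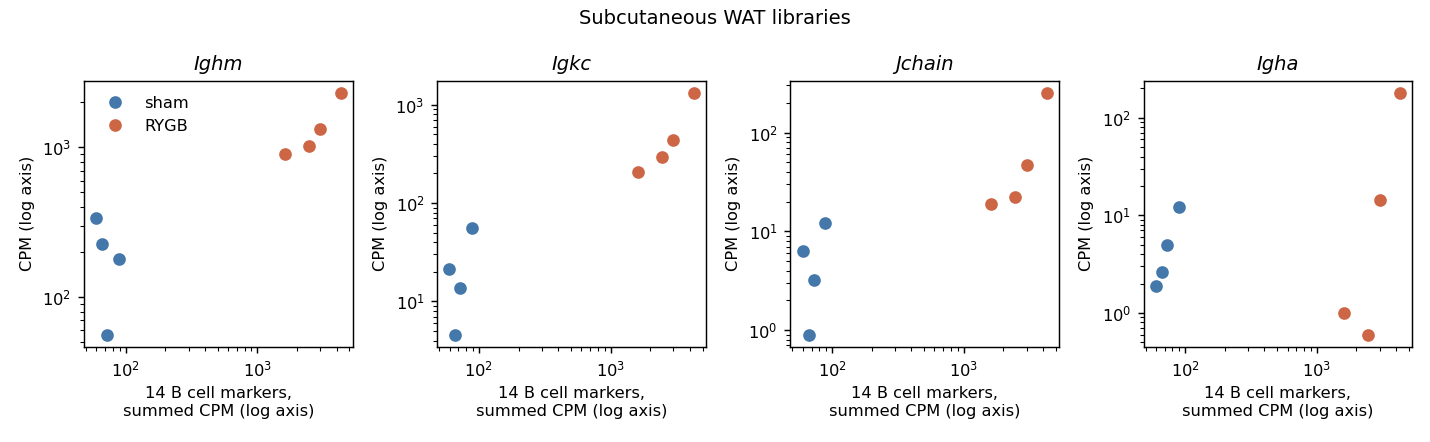
CPM of Ighm, Igkc, Jchain and Igha in the 8 WAT libraries against the summed CPM of 14 B cell markers, both on log axes. The RYGB libraries form a separate group at 1618 to 4298 CPM of B cell markers, and Igha spans its whole range within that group.

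The plasma cell programme list was mixed in WAT, with 8 of 22 genes higher and 1 lower and a median log2 fold change of 0.40. The largest increases were those of Pou2af1, a coactivator of antibody genes in B cells (5.78), Tnfrsf13c, the BAFF receptor (5.64), Cd28 (3.01) and Tnfrsf13b, or TACI (2.79), genes that B cells or T cells also express. The plasma cell transcription factor Prdm1 was not called, at 8, 10.5, 12.8 and 17.7 CPM in RYGB and 8.5, 9.4, 8.7 and 11 CPM in sham. Sdc1 fell (-1.23, SE 0.23, adjusted p = 0.0055). Of 15 listed genes of IgA switching, survival and homing, 7 rose and none fell, among them the gut homing receptor genes Ccr9 (3.02) and Itgb7 (2.77), and the integrin gene Itga4 (2.05).

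In the liver none of the 5 genes was called, where 7.08% of all genes were called, 5.79% higher and 1.29% lower, and median ratio scaling moved the share of called genes that rose from 81.8% to 68.8%. RYGB 2 stood above the others for the B lineage genes. The 5 listed B cell markers summed to 34.9 CPM in that library and to 13.2 to 17.9 CPM in the other RYGB libraries, the 8 macrophage markers to 1981.5 against 776.3 to 956.7 CPM, and Cxcl13, a chemokine that attracts B cells, was 177.3 CPM against 0.2 to 10.2 CPM. The part of these cells in its antibody values was not tested. Ighm was 13.6, 78, 14.5 and 9.5 CPM in RYGB and 16.4, 17.9, 7.9 and 18.9 CPM in sham, with a log2 fold change of 0.42 (SE 0.53, adjusted p = 0.635) that became -0.22 without RYGB 2. Igkc was 5.2, 38.6, 9.4 and 6.7 CPM in RYGB and 8.1, 7.8, 5.1 and 7.3 CPM in sham (0.57, adjusted p = 0.457), and without RYGB 2 its log2 fold change was -0.01. Jchain was 1.7, 12.9, 3.1 and 2.7 CPM in RYGB and 2.8, 2.6, 1.7 and 2.4 CPM in sham (0.55, adjusted p = 0.419).

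Igha in the liver was 0.8, 7.2, 4.5 and 3.2 CPM in RYGB and 2.4, 1.5, 1.3 and 2.8 CPM in sham. Of the RYGB libraries 3 exceeded every sham library and 1 lay below all of them (0.55, SE 0.39, adjusted p = 0.385). Without RYGB 1, the low library, Igha was called (0.97, adjusted p = 0.0383). Lanes were mixed in the liver, and the log2 differences of Igha within lanes 2, 3 and 4 were -0.47, 1.47 and 0.50.

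Pigr, which hepatocytes express in mice, was 1374.4, 1100.7, 1437.4 and 1488.2 CPM in the RYGB liver and 1287.1, 1101.7, 1290.9 and 1750.9 CPM in sham. The log2 fold change was 0.00 with a 95% confidence interval from -0.38 to 0.38, the narrowest interval of the genes in this tissue. Among 15 listed genes that control or partner pIgR, 4 rose in the liver, the NF-kappa B subunit gene Relb (1.21, adjusted p = 0.017), the interferon gamma receptor genes Ifngr2 (0.76, adjusted p = 0.0126) and Ifngr1 (0.74, adjusted p = 0.0309), and the vesicle transport gene Rab3d (0.73, adjusted p = 0.0317). In the IgA homing list Cxcr4 (1.36), Itga4 (1.11) and Tgfb1 (1.09) rose, but Cxcr4 was 0.6 to 1.4 CPM in sham and was listed through the RYGB group, which favoured a rise. The macrophage markers Lyz2 (1.81) and Cd68 (1.03) rose in the same libraries.

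Muscle had 1 row, Ighm, at 63.6, 130.6, 34.5 and 96.6 CPM in RYGB and 190.9, 118.7, 115.8 and 148.6 CPM in sham. Of the RYGB libraries 3 lay below every sham library (-0.94, SE 0.35, 95% confidence interval -1.73 to -0.15, adjusted p = 0.270). No gene was called in muscle by limma (0%), and 1746 genes had p under 0.05 without adjustment. Igkc had no row matched in muscle, and of the B cell markers only Cd37 was listed, at 0.5 to 2.1 CPM. Within lane 2, which held 2 libraries of each group, the log2 difference of Ighm was -0.72.

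Over the 10 group means of the 5 tissues that list both genes, the genes most like Pigr included Myrf (r = 0.99), Creb3l3 (0.99) and Chn2 (0.99), of 9116 genes. Those most like Jchain were Aimp1 (0.93), Ddx39 (0.92), Sp4 (0.92), Btaf1 (0.92) and Hap1 (0.92). The points share tissues and tables, and these values are descriptions with no test.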

How the data were processed

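RNA was sequenced by the authors from 48 libraries of 6 mouse tissues (TruSeq Stranded mRNA kit, lanes 1 to 6 of the labels). The submitters' processing notes name HTSeq and GRCm38. The aligner, the annotation and the strand setting are not given in the sources used here. The deposited values are CPM rounded to 0.1, in 1 table for each tissue. All listed genes had 1 CPM or more in no fewer libraries than the smaller group of the tissue contains. Lines that repeated a gene were equal and 1 was kept. For the liver, 12 incomplete lines were left out. Total counts are unknown, and 1 read was worth about 0.1 CPM or less, since at most 2 of the 0.1 steps up to 5 CPM were empty, so no counting interval was computed. Values under about 1 CPM are limited by this rounding, and all p-values rest on the number of libraries.

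Genes were matched by Ensembl identifier to GENCODE M21. By printed symbol 19 rows would have matched, because Igha and Jchain carry older names in several tables, and 27 rows matched by identifier. RYGB was compared with sham within a tissue by limma 3.58.1 (R 4.3.3, lmFit and eBayes with a trend, two-sided) on log2(CPM + 1), for genes averaging 1 CPM or more, with Benjamini-Hochberg adjustment over those genes. The method was tested on simulated data. Levels between genes were compared per kb of summed exon length. Tables were prepared with Python 3.11.15, numpy 2.4.6 and pandas 2.3.3.

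The genes, the 16 lists and their markers were chosen with earlier results of these data known. Named from each list were up to 4 called genes by size of change, others where a level was needed, the V segment with the highest mean, and the 5 genes most like Igha, Pigr and Jchain. Some genes that this rule names are not reported here. Likeness across tissues used 10 group means instead of the 12 intended, since Pigr and Jchain had no row matched in muscle. Alternatives were a pseudocount of 0.1, no filter or a mean of 10 CPM, scaling by median ratio, CPM without immunoglobulin rows, a replicate block, lane, adjusted p alone, and each library left out. The removal of the 3 libraries high in Cela1 (above 100 CPM) and of Cd37 from the B cell marker sum of WAT were added after seeing the data.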

Additional observations from a re-analysis of the deposited data

Results flagged for a closer look

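Of 58 groups of 4 or 5 libraries examined, 5 had a library far from the others by Dixon's criterion, where about 1 in 20, or 2.9, would be marked by chance. Ighm in the sham duodenum was marked because sham 2 stood at 13.7 CPM beside 1.3, 1 and 1.6 CPM, a gap of 0.869 of the group's range. Ighm in the sham liver was marked because sham 3 stood at 7.9 CPM below 16.4 to 18.9 CPM (0.833).

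The other marked groups were IgG genes in WAT. Ighg1 was 0.6 CPM in sham 2 and 0 in the other sham libraries (1.0 of the range), and Ighg2c was 0.1 CPM in sham 2 and 0.3 CPM in the others (1.0), differences of a few steps of the 0.1 CPM rounding. Ighg2c in the RYGB group was 315 CPM in RYGB 4 beside 10.9 to 19.2 CPM (0.839).

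Ighm moved in opposite directions in WAT and in the jejunum, and it was the only one of the genes to do so without overlap of the groups in both tissues. Every RYGB library of WAT lay above every sham library, and every RYGB library of the jejunum lay below, so that the log2 fold changes differed by 3.84. This difference was not tested.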

How the results depend on the processing

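Of 411 values of single genes under alternatives, 372 kept their direction and their side of the threshold, 24 changed sign, 10 lost and 5 gained a call, and the cause was not tested. The count of called genes in the jejunum fell from 1 to 0 under a filter at a mean of 10 CPM, which leaves Ighm untested, and with lane as a covariate (Ighm -1.01, adjusted p = 0.0678). With single libraries left out, this count was 0 to 1 in the duodenum, 0 to 0 in the jejunum and 0 to 1 in the liver, and it stayed at 4 in WAT except without sham 2, where 3 were called. None of the values that changed sign was called. They were Igha in the ileum with a pseudocount of 0.1 (-0.0134), Pigr in the liver with median ratio scaling (-0.12) and with lane (-0.0095), and, with single libraries left out, Igha (-0.32 to 0.42), Jchain (-0.0717 to 0.29), Igkc (-0.11 to 0.45) and Pigr (-0.0079 to 0.23) in the ileum, Pigr (-0.0899 to 0.13), Ighm (-0.22 to 0.75) and Igkc (-0.0111 to 0.88) in the liver, and Igha in WAT (-0.55 to 1.72). Pigr in WAT was called with lane as a covariate (0.87, adjusted p = 0.0356). Lane could not be fitted in the duodenum, which was run in 1 lane, or in the ileum.

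With the replicate number as a block, Igha in the jejunum was called (2.00, adjusted p = 0.0226), Ighm there was not (-0.78, adjusted p = 0.0960), and Pigr in WAT was (0.68, adjusted p = 0.0403), which left the count of called genes at 1 in the jejunum and raised it to 5 in WAT. The block changed no other call. The labels do not say whether equal numbers mark pairs. Same-numbered libraries correlated at -0.28 to 0.39 after subtraction of group means. Of the RYGB libraries 8 of 23 correlated best with the sham library of their own number, and in the liver 3 of 4 did. These correlations cannot decide whether the numbers mark pairs. Over all genes the block raised the count of called genes from 1 to 268 in the duodenum and from 0 to 184 in muscle.

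Counts over all genes moved more than those of the antibody genes. Under the filter at 10 CPM they went from 1058 to 664 in the jejunum, 650 to 333 in the ileum, 836 to 458 in the liver and 0 to 3 in muscle, with lane from 1058 to 469 in the jejunum, with median ratio scaling from 0 to 3 in muscle, and with the adjusted p alone from 3231 to 4980 in WAT. With single libraries left out they ranged from 0 to 757 in the duodenum (757 without sham 4), 462 to 1015 in the jejunum, 312 to 766 in the ileum, 329 to 1204 in the liver, 2460 to 3765 in WAT and 0 to 210 in muscle. Without the 3 duodenal libraries high in Cela1, no gene was called.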
